A study of Mus musculus with 20 samples.

Results

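Lysine is written by 2 codons (AAA and AAG) and arginine by 6 (AGA and AGG, with the 4 codons of the CGN box named CGA, CGC, CGG and CGU), and these 8 of the 61 sense codons were followed through ribosome footprints of mouse hippocampus. The members were chosen by the genetic code alone: every row of the deposited codon enrichment profiles whose codon encodes lysine or arginine (1448 of 11041 codon and position values per library), and every row of the deposited single-codon site tables whose listed codon does so. Those tables list a codon of an mRNA where it carried at least 1 footprint, and 17093 to 36343 of the 173870 to 334014 listed sites per library were lysine or arginine codons. In the 5348 mRNAs listed in all 10 libraries they made up 60811 of 561881 sites, 29655 of lysine and 31156 of arginine.

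The study compared mice lacking Qtrt1 (genotype Qtrt1-/-) with wild-type mice (WT). Footprints are the RNA that ribosomes shield from RNase I, here from lysates prepared with cycloheximide, a drug that halts elongation. Each genotype had 3 female and 2 male footprint libraries. The females were 6 months and 21 to 22 days old, the first male of each genotype was 6 months 18 days old and the other 5 months 16 days old. Matched input RNA libraries were not used here. The labels give no further allele or strain, and do not say that the libraries of a group came from separately handled animals, so p-values measure the spread between these libraries.

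QTRT1 is the catalytic subunit of the enzyme that inserts queuosine at the wobble position of 4 kinds of tRNA, those of tyrosine, histidine, asparagine and aspartate. Lysine and arginine tRNAs carry no queuosine. AAA and AGA are read by tRNAs with a thiolated, carbon-modified wobble uridine, CGU, CGC and CGA can be read by an arginine tRNA whose wobble adenosine is turned into inosine, and both amino acids are positively charged, a property known to slow a nascent chain in the negatively charged exit tunnel of the ribosome.

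A listed codon has position 0 in the enrichment profiles. Positive positions lie upstream of it and negative positions downstream: footprints recounted from the site tables around 1791 mRNAs of the first WT female and 1692 of the second knockout male gave, at each of 7 offsets, the mirrored position as the best match (Pearson's r 0.866 to 0.993 over 61 codons of 1 library, a description). The files name no ribosomal site, so position 0 is called the listed codon and position 1 the codon just upstream.

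The sites below carry the results on single codons. They are the 10 sites with the lowest p for the knockout difference and 1 site of high occupancy, shown with the codon just before the lysine or arginine codon. Each run is the coding sequence from 10 codons upstream to 5 codons downstream, from GENCODE M21 on GRCm38, written as RNA on the coding strand with the listed codon in capitals. The first 7 had more footprints in the knockout, the next 3 fewer, and the last is the arginine site with the highest occupancy in WT.
Sorl1 CGU 1286: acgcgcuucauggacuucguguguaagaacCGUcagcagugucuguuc
Ids AGG 500: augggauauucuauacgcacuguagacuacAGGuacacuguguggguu
Snap25 AAG 94: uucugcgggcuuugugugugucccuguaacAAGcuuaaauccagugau
Laptm4a CGA 191: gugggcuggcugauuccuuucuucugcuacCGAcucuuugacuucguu
Enc1 AAG 539: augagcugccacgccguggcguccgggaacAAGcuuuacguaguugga
Gmps CGA 222: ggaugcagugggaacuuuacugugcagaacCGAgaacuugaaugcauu
Lrrc8c CGU 344: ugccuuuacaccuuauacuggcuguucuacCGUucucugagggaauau
Plpp3 CGC 154: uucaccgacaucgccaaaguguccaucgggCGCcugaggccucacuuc
Rab8b AAG 21: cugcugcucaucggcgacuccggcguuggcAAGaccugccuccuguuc
Nsf CGA 403: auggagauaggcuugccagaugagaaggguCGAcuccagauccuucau
Pkm AGG 436: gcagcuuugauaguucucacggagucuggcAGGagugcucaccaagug

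In the 7 sites that rose, the 3 letters before the capitals are aac or uac, the codons of asparagine and tyrosine that end in C. In the 3 that fell they are ggg, ggc or ggu, codons of glycine, but of all 19 lysine and arginine sites that fell only 4 (21.1%) followed glycine, beside 15.8% of the sites tested.

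Among the libraries as a whole, gene count totals ran from 5357810 to 15518000 footprints and site coverage totals from 1071980 to 3032430, the highest of both in the first WT male. Qtrt1 had 28 to 94 counts in WT and 1 to 10 in the knockout. The choroid plexus markers Ttr, Folr1, Kcnj13 and Kl differed between libraries: their mean log2(CPM + 1) level was 7.99 to 8.45 in the males of both genotypes, 3.70 to 7.53 in WT females and 6.69 to 8.40 in females lacking Qtrt1, and no marker was at 0 in all libraries. Ttr alone stood at 118, 252 and 5708 CPM in the 3 WT females and at 2042 to 8822 CPM in the knockout females. The striatal markers Drd1, Drd2, Adora2a and Rgs9 went the other way, at 2.65 to 3.04 in males, 3.95 to 5.48 in WT females and 2.79 to 4.66 in females lacking Qtrt1. The part of this tissue difference in the codon results was not tested, apart from the values given below with and without single sites.

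In WT hippocampus the lysine codons stood far apart at the listed codon and together just upstream. Enrichment, a deposited ratio in which 1 means no enrichment, of AAA at position 0 was 0.445, 0.393 and 0.460 in the WT females and 0.445 and 0.284 in the WT males (mean 0.406 ± 0.072, SD, n = 5), the lowest of 61 codons. That of AAG was 1.25, 1.22, 1.14, 1.19 and 1.04 (1.17 ± 0.081, SD, n = 5), the sixteenth highest. Every WT library had AAA below and AAG above 1. One codon upstream both were depleted. AAA was at 0.343, 0.296, 0.387, 0.445 and 0.206 (0.336 ± 0.091, SD, n = 5) and AAG at 0.329, 0.293, 0.383, 0.482 and 0.231 (0.344 ± 0.095, SD, n = 5), ranks 58 and 57 of 61. The 2 codons moved together from library to library there, both highest in the first WT male and lowest in the second.

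The arginine codons spread over a wide range at both positions. CGA was the most enriched at position 0, at 1.65, 1.93, 1.78, 1.56 and 1.44 in the 5 WT libraries (1.67 ± 0.190, SD, n = 5), the fifth highest of 61 codons. AGA followed at 1.05 ± 0.157, and the other 4 averaged between 0.777 (CGU) and 0.873 (CGG). At position 1 CGU and CGA led, CGU at 1.25, 1.27, 1.25, 1.30 and 1.24 and CGA at 1.28, 1.21, 1.24, 1.17 and 1.18. CGC was lowest there, at 0.527, 0.502, 0.499, 0.537 and 0.529. CGU and CGC can be read by the same inosine-bearing tRNA. CGU was above CGC in every WT library at position 1, but below it on average at position 0. Whether decoding by this tRNA shapes either value was not tested.

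**Figure D1:**
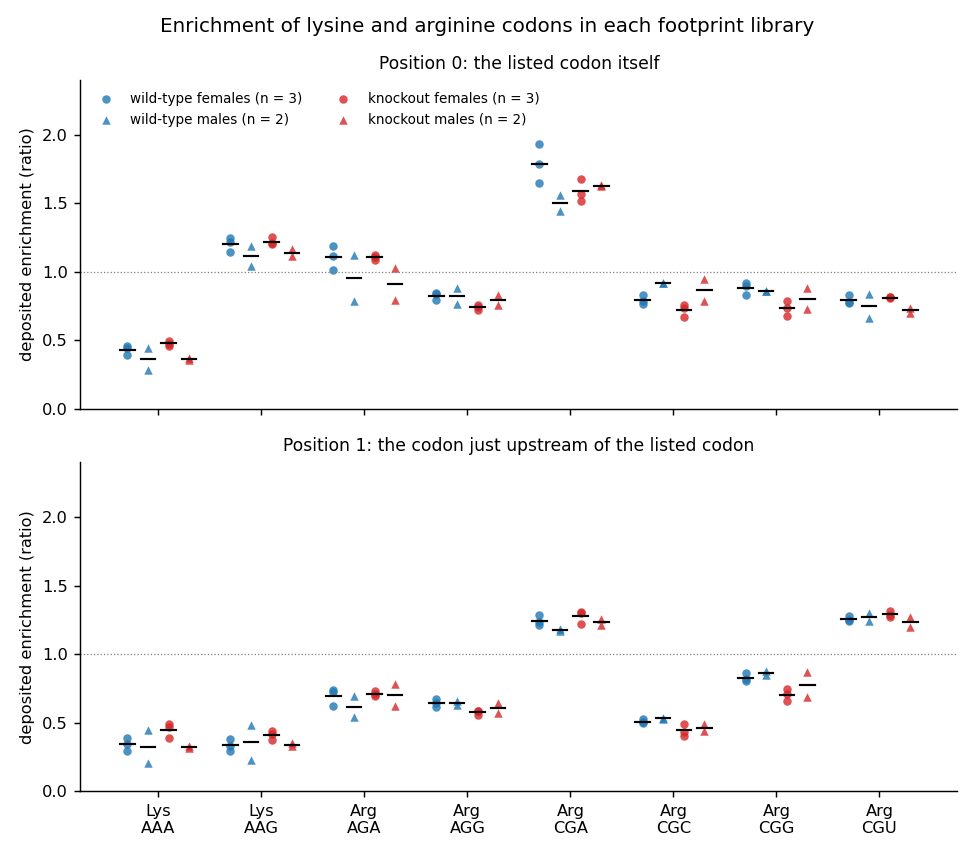
Deposited enrichment (ratio, linear axis) of the 8 codons in each footprint library at position 0 (top) and position 1 (bottom). Points are libraries, bars are group means, and the dotted line is 1. AAA lies below AAG in every library at position 0, and both lie below 0.5 at position 1.

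Away from these positions each codon had its own profile. AAA and AAG were both at 0.60 on average 4 codons downstream (position -4), and at 0.631 and 0.706 at position 3. AGA and AGG were also depleted at position -4, at 0.658 and 0.639, where the 4 CGN codons averaged 1.16 to 1.5. CGU reached 1.58 ± 0.051 at position 3 and 1.45 ± 0.169 at position 4 (SD, n = 5), above its 0.777 at position 0. The value of CGC at position -3 ran from 0.898 to 1.88 between WT libraries, too wide to place it. The spread over all 61 codons was largest at position 1 (SD 0.873 in WT) and 0.109 at position -10. Averaged over blocks beyond the footprint, between 6 and 60 codons away on either side, the 8 codons lay between 0.888 (CGU) and 1.10 (CGA), both in the block 6 to 15 codons downstream.

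**Figure D2:**
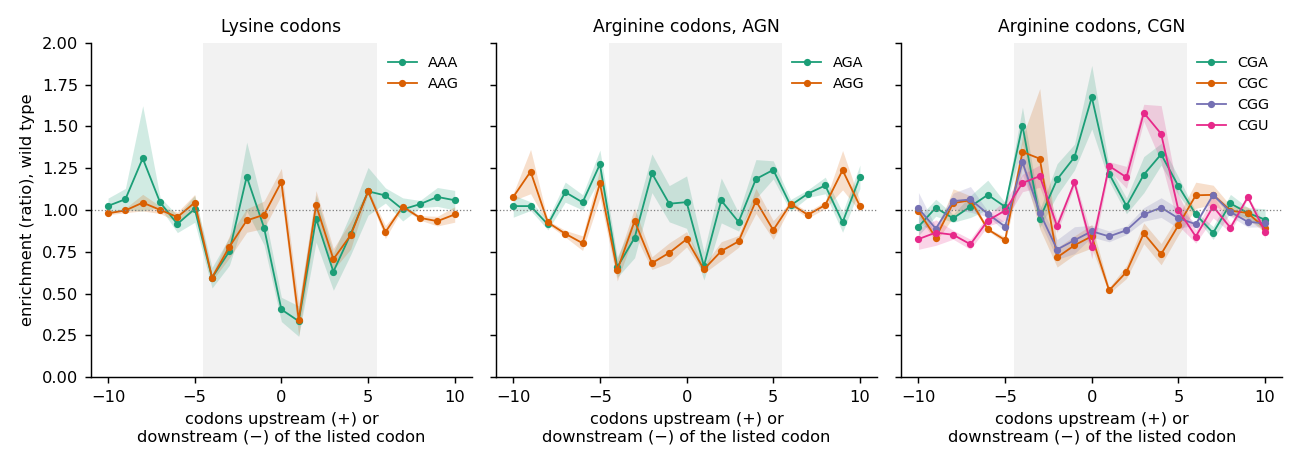
WT enrichment (ratio, linear axis) by codons upstream (positive) or downstream (negative) of the listed codon. Lines are means of 5 libraries, bands are 1 SD, and the grey area spans positions -4 to 5. The lysine codons part at position 0 and meet at position 1, and CGU peaks at position 3.

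The gap between 2 synonymous codons was taken within each library as the difference of their log2 enrichments and tested with limma over all 87 synonymous pairs of the code. At position 0 AAA lay 1.56 ± 0.06 (SE) log2 units below AAG in WT, a gap of -1.56 or 0.339-fold (adjusted p = 4.59e-11, limma), the third largest of the 87. At position 1 the same gap was -0.05 ± 0.03 (adjusted p = 0.127, limma; 95% confidence interval -0.12 to 0.02). Of the 16 lysine and arginine pairs, 13 passed at position 1, where 90.8% of all 87 pairs passed, and 13 at position 0, where 88.5% passed. The pairs that missed at position 1 were AAA and AAG, AGA and AGG, and CGA and CGU. At position 0 they were the 3 pairs among AGG, CGC and CGG.

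Among the arginine pairs at position 1, CGC lay below CGU by a gap of -1.28 ± 0.04 (0.412-fold, limma, adjusted p = 2.03e-15), and CGA above CGC by 1.21 ± 0.04 (2.32-fold). CGA did not differ from CGU there (-0.06, 95% confidence interval -0.14 to 0.01), but lay 1.09 ± 0.05 (2.13-fold) above it at position 0. The order of arginine codons depended on the position: 7 of the 15 arginine pairs changed sign between positions 1 and 0, 5 of them past the threshold at both.

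The knockout did not shift any of the 8 codons past an adjusted p of 0.05 at either position. At position 1, over both sexes, limma called 0 of the 8, where 6.56% of the 61 codons were called and 3 of the 8 had an unadjusted p under 0.05. In females it called 0 of 8 (9.84% of all codons, 3 of 8 unadjusted), in males 0 of 8 (3.28%, 0 unadjusted), and for the difference between the sexes 0 of 8 (0%, 0 unadjusted). At position 0 the counts were 0 of 8 over both sexes (8.2%, 1 unadjusted), in females (11.5%, 3 unadjusted) and in males (0%, 0 unadjusted). The sex difference there had 0 of 8 called against 0% of all codons, with 1 of 8 unadjusted.

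AAA at position 1 was 0.493, 0.468 and 0.392 in the knockout females, each above the 3 WT females, and 0.333 and 0.317 in the knockout males, between the 2 WT males. The difference over both sexes was 0.25 ± 0.20 log2 (SE; 95% confidence interval -0.20 to 0.70; limma, adjusted p = 0.337). AAG was 0.442, 0.418, 0.376, 0.353 and 0.328, and its difference 0.17 ± 0.18 (adjusted p = 0.471, limma). In both lysine codons the intervals allow a rise or a fall.

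CGC, CGG and AGG had lower values in the knockout. CGC at position 1 was 0.433, 0.404 and 0.495 in the knockout females and 0.492 and 0.437 in the knockout males, each below the WT libraries of its sex (difference -0.20 ± 0.06; limma, adjusted p = 0.0994). CGG was 0.706, 0.662, 0.747, 0.868 and 0.689 against 0.802 to 0.879 in WT, so that the first knockout male overlapped (-0.20 ± 0.07; limma, adjusted p = 0.116). AGG was 0.558 to 0.642 against 0.618 to 0.676 (-0.13 ± 0.05; limma, adjusted p = 0.135). CGU hardly moved, with a difference of -0.00 ± 0.04 and a 95% confidence interval of -0.08 to 0.08. CGA differed by 0.05 ± 0.04, a sign that turns to -0.02 when each library is divided by its median over codons.

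Counting codons whose genotypes do not overlap within a sex, females had 4 of 8 at each position, AAA higher and AGG, CGC and CGG lower, against 67.2% of the 61 codons at position 1 and 54.1% at position 0. Males had 2 of 8 at position 1 (CGA higher, CGC lower) against 19.7%, and 1 of 8 at position 0 (CGA higher) against 18%. In both sexes these shares lie near those of all codons.

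**Figure D3:**
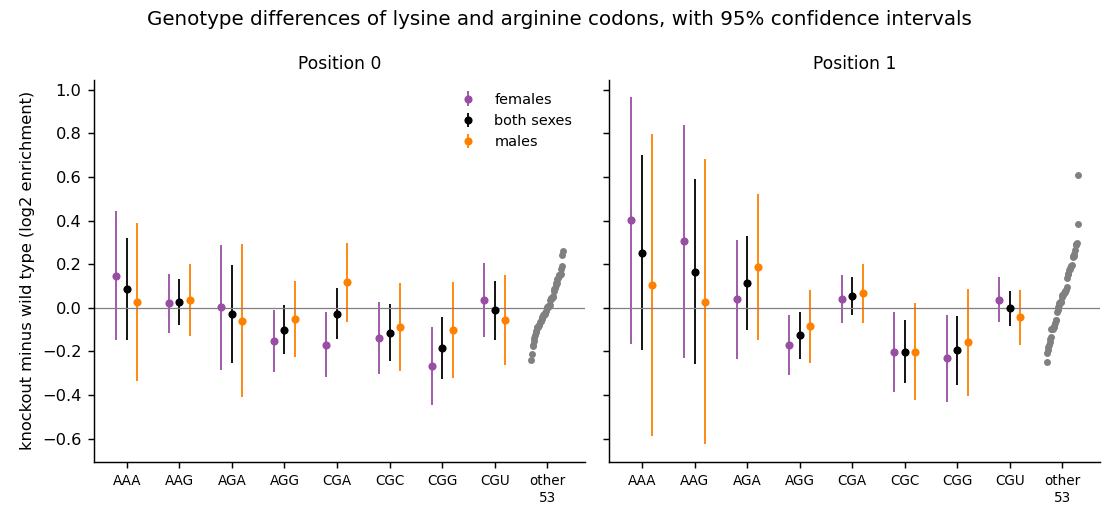
Knockout minus WT log2 enrichment at position 0 (left) and position 1 (right) from limma. Coloured points are females, both sexes or males with 95% confidence intervals, and grey points are the estimates of the other 53 codons over both sexes. The intervals of AAA and AAG at position 1 are the widest of the 8 codons.

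These calls depended on single libraries, above all on the 2 WT males, whose AAA values at position 1 (0.445 and 0.206) bracket all other WT libraries. Without the first WT male, AAA rose by 0.53 (limma, adjusted p = 0.00103) and AAG by 0.43 (adjusted p = 0.00187), AGA rose by 0.21, and CGC and CGG fell by 0.20 and 0.21, so that 5 of 8 passed where 57.4% of the 61 codons did. Without the second WT male the lysine differences were -0.03 and -0.10, and 0 of 8 passed. Without the first knockout male AGG, CGC and CGG were all lower, and without the third knockout female the difference of CGC was -0.24. In males, leaving out the first WT male gave differences of 0.66 (AAA) and 0.56 (AAG), with the second WT male as the only WT library of that sex. The female contrast fitted on the females alone, without the spread of the males, passed AAA and AAG higher and AGG, CGC and CGG lower, 5 of 8 where 55.7% of codons passed.

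The within-library gap between synonymous codons cancels a factor that all codons of a library share. Its knockout difference at position 1 passed in 6 of the 16 pairs, against 13.8% of all 87 pairs, all 6 of them arginine pairs. CGC lost ground to CGA, with a gap larger by 0.26 ± 0.06 (limma, adjusted p = 0.0162), to CGU by 0.20 ± 0.06 (gap difference -0.20, adjusted p = 0.0316) and to AGA by 0.31 ± 0.09 (adjusted p = 0.0320). CGG lost ground to CGA by 0.25 ± 0.07 (adjusted p = 0.0204) and to CGU (gap difference -0.19, adjusted p = 0.0353), and AGG to CGA (-0.18, adjusted p = 0.0320). The lysine gap differed by 0.09 ± 0.05 (limma, adjusted p = 0.214). No pair of the 87 passed at position 0 (0%), and none of them passed on the linear ratio. Leaving out 1 library gave between 0 pairs, without the second knockout male, and 9, and a block on the replicate number, which in the males goes with the age, called 1 pair.

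Across all 181 positions the knockout difference over both sexes passed in 1 of the 1448 lysine and arginine values (limma), CGU at position 64 (0.21, adjusted p = 0.0255), far outside the footprint, against 0.0543% of all values, and 0 did with the replicate block. An unadjusted p under 0.05 was found for 346. Without 1 library the count that passed ran from 0 to 140. The unadjusted counts and this range lack the matching counts over all values, so they are not read as particular to these codons. In females 153 passed, against 8.57% of all values, and in males 0 (0% of all values, with 55 unadjusted). Within positions -4 to 5 the females had 16 of 80, 5 of them higher, beside 16.4% of all codons there. The 16 included AGG (-0.33), CGC (-0.29) and CGG (-0.22) lower and CGU higher (0.20), all at position 4. Elsewhere 137 of 1368 passed, against 8.11% of all codons. Most calls thus lay outside the footprint, as most values do, but the share that passed was higher within it (20% against 10.0%).

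The site tables also had AAA lowest and CGA highest of the 8 codons, followed by AAG and AGA, while the order of CGC and CGG was the other way round. Here occupancy is the summed coverage of a codon over what the mean coverage of its mRNAs predicts, over sites with at least 1 footprint in any library, which lifts all values above the enrichment scale. AAA was the lowest of 61 codons in WT at 0.799 ± 0.158 (SD, n = 5) and CGA the second highest at 3.23 ± 0.434. AAG was at 2.04 ± 0.155, and the other arginine codons averaged from 1.47 (CGU) to 1.89 (AGA), CGC at 1.74 and CGG at 1.66. A footprint was listed per library at 2.15% to 6.95% of AAA codons, 5.36% to 10.5% of AAG codons and 5.78% to 11.3% of CGA codons, the highest of the 8 in every library. AAA was the lowest except in the second knockout female (4.63%, CGC 4.41%). It took 0.569% to 1.12% of all footprints although it made up 2.27% of all codons (39.9% of lysine codons). AAG, 3.42% of all codons, took 3.75% to 4.58%. Between genotypes limma called 0 of 8 over both sexes (0% of 61 codons, 1 of 8 unadjusted).

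At single sites, footprints were set against the total of their own mRNA in that library (edgeR's quasi-likelihood test, adjusted over all 37591 sites tested of every codon). Of the 60811 lysine and arginine sites 3818 passed the filter on low counts. Of these 42, in 38 genes, differed between genotypes over both sexes, 23 higher and 19 lower in the knockout, 1.10% of those tested against 1.4% of all sites. In females 251 passed (118 higher and 133 lower, against 7.4% of all sites). In males edgeR called 0 (0% of all sites), as for the difference between the sexes (0%). Unadjusted, 164 of the 3818 had a p under 0.05 in males, beside 1661 of all 37591 sites. For the sex difference 366 did, beside 3360 of all sites. By codon the 42 were 2 of 300 AAA, 13 of 1588 AAG, 1 of 385 AGA, 3 of 345 AGG, 9 of 336 CGA, 4 of 307 CGC, 5 of 395 CGG and 5 of 162 CGU sites. With a block on the replicate number 10 sites passed in place of 42. Limma on the log2 occupancy called 0 of them, and leaving out 1 library moved the count from 0, without the second knockout male, to 168, without the first WT male. How many of all sites passed in those fits is not given here, so the range is not read as particular to these codons. Each of the 10 sites with the lowest p kept its direction when any 1 library was left out. They were chosen by their p over all 10 libraries, so this is no test of their stability.

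The site with the lowest p was CGU 1286 of Sorl1, a sorting receptor of neurons (chr9:42004074-42004076, minus strand, exon 28). Its deposited occupancy, coverage over the mean per codon of the mRNA, was 6.56, 7.82 and 7.50 in the WT females and 12.2 and 13.7 in the WT males, against 33.8, 25.9 and 23.9 in the knockout females and 23.3 and 40.3 in the knockout males. The genotypes did not overlap, and the site rose by 1.62 ± 0.22 log2 (edgeR, adjusted p = 0.00559). Sites named for a low p were chosen by this same difference, so a lack of overlap at them is no separate evidence. AAG 94 of Snap25, a SNARE protein of synaptic vesicle fusion, spans the junction of exons 5 and 6 (chr2:136770173-136773895, plus strand). It was the deepest of them, with 392 to 2332 footprints in WT. Its occupancy was 10.5, 11.2, 10.7, 22.3 and 19.3 in WT and 31, 23.6, 24.8, 27.9 and 28.5 in the knockout, a rise of 0.84 ± 0.16 (edgeR, adjusted p = 0.0182), with the WT males closer to the knockout than the WT females.

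AGG 500 of Ids, a lysosomal sulfatase (chrX:70346360-70346362, minus strand, exon 9), rose by 1.40 ± 0.26 log2, from an occupancy of 2.75 to 10.5 in WT to 9.44 to 20.7. CGA 191 of Laptm4a, a lysosomal membrane protein (chr12:8934902-8934904, plus strand, exon 4), went from 6.92 to 10.5 in WT to 14.2 to 18.6, with no overlap (0.92 ± 0.18). CGA 222 of Gmps, which makes GMP (chr3:63990292-63990294, plus strand, exon 6), went from 11.4 to 20.6 to 26.1 to 41.5 (1.16 ± 0.22). AAG 539 of Enc1 (chr13:97246598-97246600, plus strand, exon 2) rose by 1.22 ± 0.23 and CGU 344 of Lrrc8c, a subunit of volume-regulated anion channels (chr5:105607390-105607392, plus strand, exon 4), by 1.55 ± 0.33, the last on only 2 to 29 footprints in WT. Gmps, Laptm4a and Lrrc8c did not overlap between genotypes, while Ids and Enc1 did.

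The 3 named sites that fell all follow a glycine codon. CGC 154 of Plpp3, a lipid phosphate phosphatase (chr4:105208686-105208688, plus strand, exon 3), had occupancies of 19.9, 27.1, 18.2, 12.3 and 14.8 in WT and 3.52, 2.72, 6.36, 9.88 and 5.88 in the knockout (-1.58 ± 0.24; edgeR, adjusted p = 0.0114). AAG 21 of Rab8b, a small GTPase of membrane traffic (chr9:66919571-66919573, minus strand, exon 1), fell by 1.62 ± 0.33 on 3 to 37 footprints. CGA 403 of Nsf, the ATPase that takes SNARE complexes apart (chr11:103872324-103872326, minus strand, exon 12), fell by 1.31 ± 0.27. All 3 had every knockout library below every WT library, but they too were chosen by a low p for this difference.

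The sites with the highest WT occupancy, among 243 lysine and 238 arginine sites with at least 20 footprints in every WT library, included 4 AAG sites (Tnks2, Psap, Cops7a and Dirc2) and 5 arginine sites (Pkm, Ube2o, Prrc2b, Zfr and Cabp1). The fifth lysine site stood at 160 and the sixth at 156, and the arginine sites at 147 and 146, while the medians of these pools were 13.5 and 14.0. AGG 436 of Pkm, pyruvate kinase, spans exons 9 and 10 (chr9:59675194-59678044, plus strand) and was at 214 to 383 in WT and 178 to 302 in the knockout (-0.39 ± 0.19; edgeR, adjusted p = 0.270). None of the 9 named here passed over both sexes, and none of them is an AAA site.

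More of the sites that rose than of all tested sites had AAC or UAC just upstream. This feature was looked at after the values were seen, and AAC and UAC at position 1 were already known to differ in these libraries, so it is no independent evidence. Of the 23 sites that rose, 13 had AAC (5) or UAC (8) upstream, against 234 of 3816 tested sites with a matched sequence (6.13%), and 0 of the 19 that fell did. The other 10 that rose followed other codons. Of the 335 sites after GAC, an aspartate codon, 5 fell (1.49%) and 1 rose, and of the 602 after glycine 4 fell (0.664%) and 1 rose, beside 0.498% of all tested sites that fell and 0.603% that rose. The share after glycine lies near that of all sites.

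The shift was not limited to called sites. The median difference was 0.52 log2 over the 82 sites after UAC, 72 of them above 0, and 0.43 over the 152 after AAC, beside -0.04 over all tested sites, 47.7% of which were above 0. The synonymous codons ending in U gave lower medians, 0.24 after UAU (34 sites) and 0.07 after AAU (57 sites). Few sites followed the histidine codons, 15 after CAC (0.38) and 12 after CAU (0.44). After GAC the median was -0.21, after glycine -0.20, and after another lysine or arginine codon 0.01 (239 sites). By sex, it was -0.33 in females and -0.10 in males after GAC, and -0.36 and -0.02 after glycine. After lysine or arginine the sexes went opposite ways, at 0.19 in females and -0.19 in males. In males alone the median after UAC was 0.56, close to the pooled one. Of the 234 sites after AAC or UAC, 195 were above 0, and 169 to 198 were when 1 library was left out. The number called is less stable: it was 13, 0 without the second knockout male, 1 without the first or second library of either female group, and 25 without the first WT male.

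**Figure D4:**
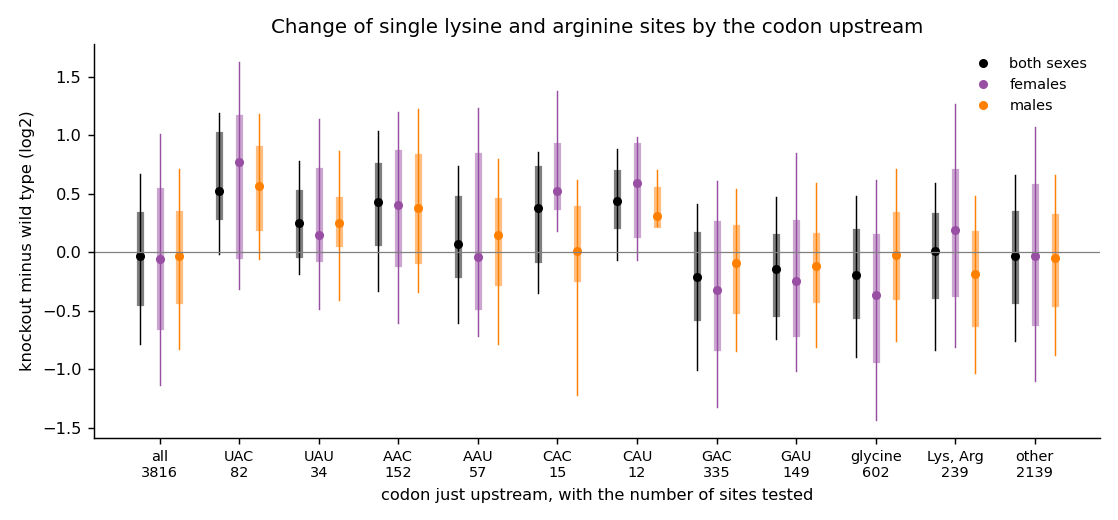
Knockout minus WT log2 difference of single lysine and arginine sites by the codon just upstream, with the number of sites under each. Points are medians, thick bars the middle 50% and thin lines the middle 80% of sites, for both sexes, females and males. The medians after UAC and AAC lie above 0 in all 3 contrasts, and those after GAC and glycine below.

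Counted over all coding sequence codons rather than tested sites, footprints at lysine codons were set against the number that the coverage of their mRNAs predicts. In WT this observed over expected ratio was 2.17 after aspartate, 1.72 after glycine, 1.13 after cysteine and 1.06 after glutamate, and lowest after isoleucine (0.200), methionine (0.210), histidine (0.264) and lysine itself (0.292). Arginine codons gave 2.41 after glycine, 2.36 after asparagine and 2.02 after aspartate, and 0.201 after lysine. Grouped by charge, lysine codons were at 1.43 after an acidic residue, 0.391 after a basic one and 0.678 after any other, and arginine codons at 1.51, 0.337 and 0.810.

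Of the 122 contexts of a lysine or arginine codon with a given upstream codon, the knockout was above WT in every library in 4 (3.28%), beside 4.92% of the 61 contexts of all other listed codons. Lysine codons after AAC went from 0.973 to 1.32 in WT to 1.59 to 1.85, and after UAC from 0.634 to 0.815 to 1.00 to 1.28. Arginine codons after AAC went from 0.770 to 1.04 to 1.16 to 1.37, and after UAC from 0.349 to 0.551 to 0.678 to 0.789. All other listed codons together moved the same way, from a mean of 0.849 to 1.09 after AAC and 0.503 to 0.775 after UAC. The knockout was below WT in every library in 3 contexts (2.46%; 1.64% for lysine alone, and 1.64% for all other codons): lysine after CAG (0.871 to 0.720) and arginine after GAC (1.82 to 1.42) and GAU (2.61 to 2.25). By upstream amino acid, 3 of the 40 contexts were higher (7.5%, beside 10% for other codons), lysine after asparagine and tyrosine and arginine after tyrosine, and 3 were lower (7.5%, beside 5%), lysine after glutamine and proline and arginine after aspartate.

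**Figure D5:**
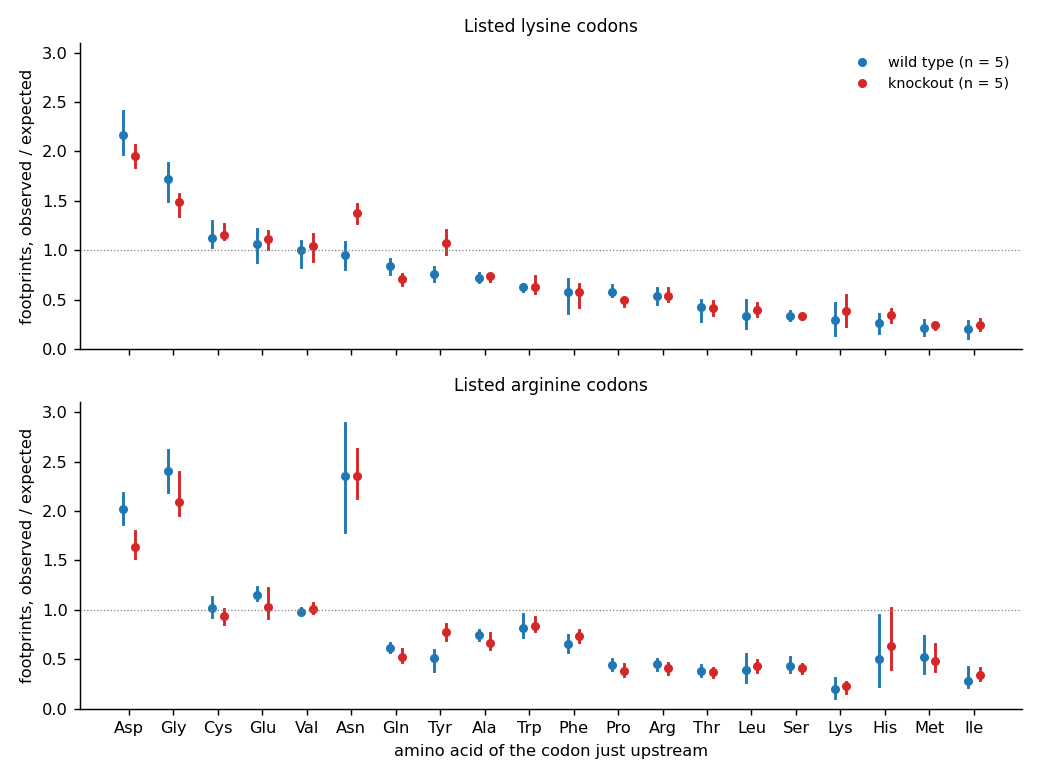
Observed over expected footprints (linear axis) at lysine (top) and arginine (bottom) codons by the amino acid just upstream, ordered by the WT lysine value. Points are means of 5 libraries and lines run from the lowest to the highest library. Asparagine and tyrosine are higher in the knockout for lysine codons, and tyrosine for arginine codons.

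Single sites carry much of some contexts. Snap25 codon 94 held 30.6% of the footprints at lysine codons after AAC, and without it the ratio was 0.706 to 0.961 in WT and 1.02 to 1.28 in the knockout. Codon 44 of Pgrmc1 held 36.9% of those after UAC, and without it they were at 0.443 to 0.561 and 0.643 to 0.687. For arginine after UAC the genotypes overlapped without codon 191 of Laptm4a (0.296 to 0.494 and 0.491 to 0.641). They also overlapped for lysine after CAG without codon 69 of Nptx1 (0.716 to 0.881 in WT and 0.622 to 0.723 in the knockout). The same held for arginine after GAC without codon 384 of Nptx1. In both contexts the knockout mean stayed below the WT mean. For arginine after GAU the genotypes did not overlap without codon 62 of Camk2n1. Codon 55 of Ttr, the choroid plexus marker that differed between libraries, held 69.8% of footprints at lysine codons after AAA. That context averaged 0.352 in WT and 0.581 in the knockout with it, and 0.180 and 0.179 without it. Codon 297 of Cpe, a peptide-processing enzyme, held 72.8% of those at arginine codons after AAU, whose WT mean fell from 6.36 to 1.54 without it.

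For the charge of the nascent chain, every listed codon was sorted by the number of lysine and arginine codons among the 10 that lie 6 to 15 codons upstream. WT ratios were 0.878 with 0 of them, 0.819 with 1, 0.842 with 2, 0.862 with 3, 1.04 with 4 and 0.915 with 5 or more. The class with 4 was the highest, at 1.02 to 1.05 in the WT libraries. The class with 5 or more, at 0.882 to 0.943, did not continue the rise, though its mean was above those of the classes with 0 to 3. In the knockout the class with 4 was at 1.00 to 1.03.

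The genes that decode, modify or supply lysine and arginine changed little. Of 31 listed genes, 30 were in the count table and tested: synthetases and their complex, wobble uridine modification, Cdkal1 and other position 37 enzymes, the inosine deaminase subunit Adat2, cationic amino acid transporters and rescue factors. Adat3 was the one not tested. EdgeR called 0 of 30 over both sexes (0.00761% of all genes, 5 unadjusted), in females 0 (7.06%, 4 unadjusted) and in males 0 (0%, 3 unadjusted). DESeq2 over both sexes also called 0 of the 30, but 525 of all genes where edgeR called 1. The median difference was -0.04, beside 0.00 over all genes. Alkbh8, which completes the modified wobble uridine, had 20.4, 18.6, 20.5, 20.2 and 14.7 CPM in WT and 28.4, 27.7, 24.2, 19.4 and 24.2 in the knockout (0.36 ± 0.12; edgeR, adjusted p = 0.127). The ribosome rescue factor Pelo had 14.3 to 17.6 CPM in WT and 11.4 to 13.5 in the knockout, with no overlap (-0.33 ± 0.11, edgeR, adjusted p = 0.138). Pelo was named for its low p, so the lack of overlap is no separate evidence. The mitochondrial arginine synthetase Rars2 differed by 0.47 ± 0.16 and the thiolation factor Mocs3 by -0.52 ± 0.20. Without the first WT male the differences were 0.49 for Alkbh8, -0.77 for Mocs3 and -0.60 for Ctu1, another thiolation factor. The values are footprint counts of whole tissue, so fewer cells of a type, less RNA per cell and fewer ribosomes per RNA cannot be told apart.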

How the data were processed

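Ribosome footprints were analysed from 10 hippocampus libraries in 4 groups of sex and genotype. The authors deposited the codon enrichment as a ratio per codon and position, from 90 codons downstream to 90 upstream, and for each listed codon the coverage as footprint counts, the single-codon occupancy as a ratio to the mRNA's mean, and as a percent how much of the coding sequence was covered, per the file headers. They also deposited a table of raw counts per gene. Cutadapt 1.8.1, Trimmomatic 0.39, Bowtie 1.0.0 and 1.2.2 and SAMtools 0.1.19 are named in the submitters' processing notes. No source used here gives their roles, the genome build or the counting tool. The site tables list mRNAs, and 1204 of 9614 genes have more than 1 listed, so a footprint may stand under several.

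Log2 enrichment was fitted with limma 3.58.1 in R 4.3.3 over all 61 codons, the 87 synonymous gaps or all 11041 values. The difference over both sexes is the mean of the female and male differences. Sites were tested with edgeR 4.0.16 (quasi-likelihood, filterByExpr, the log of the mRNA's summed coverage as offset) in mRNAs listed in all libraries, and genes with edgeR and TMM. All tests were two-sided, with Benjamini-Hochberg adjustment over all features and a threshold of 0.05. DESeq2 1.42.0, limma on occupancy plus 0.1, other scalings, filters, a replicate block and leaving out each library were alternatives. Tested on simulated data, the fits recovered 100% of 200 codon and position values (of 11041) changed by 0.5 log2. They recovered 13% of 200 sites (of 37591) and 83.5% of 200 genes (of 13143) changed by 1 log2. Of the calls, 5.21%, 16.1% and 3.47% were of unchanged features. The 100% is for values over all positions, and recovery at position 1 alone was not tested. In the fit of all positions over both sexes, the SE at position 1 was 0.18 for AAA and 0.17 for AAG. At position 10 it was 0.024 and 0.022.

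Sequences and coordinates come from GENCODE M21 on GRCm38. Of the 5348 mRNAs, 5317 had a coding sequence there and 5307 matched at every listed codon. Expected footprints are the mRNA's mean coverage per codon. Named sites are the 5 lysine and 5 arginine sites of highest mean WT occupancy with at least 20 footprints in every WT library, and the 10 lysine or arginine sites with the lowest p among those passing over both sexes. Named decoding genes are those that pass, or else the 4 with the lowest p. The members, gene lists and markers were chosen with earlier results of these data known. The table of spreads within a library was left out because it does not measure the spread between libraries. Results on sites of some genes that the naming rule selects are not reported here.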

Additional observations from a re-analysis of the deposited data

How the results depend on the processing

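With 2 or 3 libraries a group, 1 library moved most counts. Leaving out each in turn gave 0 to 5 of the 8 codons at position 1 over both sexes and 0 to 5 in females, 0 to 2 in males, 0 to 2 for the sex difference, 0 to 2 at position 0, 0 to 140 of the values at all positions, 0 to 9 gaps that differed by genotype, 0 to 2 codons by site-table occupancy, 0 to 168 single sites and 0 to 3 decoding genes. The 13 WT gaps at position 1 were 13 each time. The log2 differences at position 1 ran from -0.026 to 0.53 (AAA), -0.10 to 0.43 (AAG) and -0.023 to 0.017 (CGU) over both sexes, -0.040 to 0.084 (AGA) in females, and -0.45 to 0.66 (AAA), -0.50 to 0.56 (AAG) and -0.33 to 0.0079 (CGG) in males. At position 0 they ran from -0.075 to 0.25 (AAA), -0.019 to 0.074 (AAG), -0.15 to 0.10 (AGA), -0.055 to 0.0018 (CGA) and -0.093 to 0.071 (CGU), and the WT gap of AGA and AGG at position 1 from -0.058 to 0.094. Where a male library was left out, the lone library of its group was assumed to vary like the other groups.

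Dividing each library by its median over codons turned CGA at position 1 to -0.022 over both sexes, AGA, CGA and CGU in females to -0.060, -0.059 and -0.061, AAG in males to -0.023 and CGU at position 0 to 0.0018, and left 0 values at all positions. On the linear ratio the male differences were -2.7e-04 (AAA) and -0.016 (AAG), and 0 gaps differed by genotype. The females fitted alone called 5 codons. At position 0 the gaps that differed by genotype numbered 0, and WT gaps changed sign to 0.23 (AGA and CGG), 0.41 (AGA and CGU), -0.049 (AGG and CGC), 0.10 (AGG and CGU), 1.09 (CGA and CGU), 0.15 (CGC and CGU) and 0.18 (CGG and CGU). Limma on occupancy called 0 sites. The cause of these changes was not tested.

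The labels number the libraries in each group, but same-numbered libraries did not deviate together (correlations over 61 codons of -0.55, 0.086, -0.58 and -0.38 at position 1, and -0.31 to -0.18 at position 0), and none correlated best with its own number. In the males the same-numbered libraries share an age to the day, 6 months 18 days or 5 months 16 days; the labels state no shared litter or day of preparation, so the fits without the block were kept. With the replicate block, 0 values at all positions, 1 gap that differed by genotype and 10 single sites passed. Of all alternatives, 858 kept direction and side of the threshold or gave an equal or similar count. Another 139 no longer passed or gave a lower count, 52 newly passed or gave a higher count and 36 changed sign.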
